A study of Mus musculus with 16 samples.

Results

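Toll-like receptors are membrane proteins that bind molecules of microbes or of damaged tissue and start inflammatory signalling. Their transcripts were read from 10 rows of the table of 55492 genes, those named Tlr1 to Tlr9 and Tlr13. All 10 had a mean of at least 10 normalized counts over the libraries and were tested. A normalized count is the number of reads on a gene divided by the library's size factor, which puts libraries of different depth on a common scale. A library held between 8 and 4471 reads of a member. Sequencing was paired-end, and whether mates of a fragment were counted apart was not established.

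RNA was sequenced from left ventricles of 16 male C57BL/6 mice aged 8 to 12 weeks, each library from its own mouse. PKM2-/- mice lack the M2 isoform of pyruvate kinase in every tissue. They were made by germline excision of exon 10 of Pkm with a Cre driven by a CMV promoter, and the Cre was then bred out. PKM2fl/fl mice carry the floxed allele without excision and served as controls. Each genotype had 2 unoperated mice (baseline), 3 mice taken 3 days after sham surgery and 3 mice taken 3 days after myocardial infarction (MI). Infarction was produced by permanent ligation of the left anterior descending artery, and sham mice were operated on without ligation. The row of Pkm holds both isoforms, so it does not check the deletion. At baseline it ran from 9108.5 to 9602 normalized counts in PKM2fl/fl and from 11981 to 12984 in PKM2-/- libraries. The ranges were 7779 to 9444 and 11710 to 14242 after sham, and 9576 to 12076 and 10120 to 16113 after MI. Libraries held 20623769 to 71855101 reads on genes. The loci treated as related to ribosomal RNA took 15.9% to 48.5% of them. These loci include the mitochondrial mt-Rnr1 and mt-Rnr2 and protein-coding genes such as Cd44 and Lars2.

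The family divides by where the receptor sits. TLR1, TLR2, TLR4, TLR5 and TLR6 act at the cell surface on lipids and proteins of bacteria, and TLR2 works as a pair with TLR1 or TLR6. TLR3, TLR7, TLR8, TLR9 and TLR13 act in endosomes on nucleic acids. Most members signal through the adaptor MyD88 to NF-kB and interferon regulatory factors, whereas TLR3 uses TRIF and TLR4 uses both adaptors. In the heart, macrophages and other leukocytes, cardiomyocytes, fibroblasts and endothelial cells can carry these receptors, and TLR4 and TLR2 are known for sensing molecules released from injured myocardium.

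Of the 10 genes, 3 lie on chromosome X, with Tlr8 (chrX:167241123-167264329) next to Tlr7 (chrX:167303380-167330574), and Tlr13 at chrX:106143275-106160493. A neighbouring pair lies on chromosome 5, Tlr1 at chr5:64924680-64933600 and Tlr6 at chr5:64953092-64970942. Positions are of GRCm38.p6 from RefSeq, the assembly behind the mm10 build to which the authors aligned. Transcripts of Tlr1 and Tlr6 share an identical stretch of 229 bases, against at most 40 bases in any other pair, so reads in that stretch could be split or lost between them. Genes on the opposite strand cover exons of Tlr3, Tlr4 and Tlr6 (Gm45542, Gm69151 and Fam114a1), and whether the counting used strand is not given in the sources used here.

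Promoters are shown for Tlr13, Tlr8 and Tlr9. With Tlr7 they were the 4 receptors with the smallest p in PKM2fl/fl after MI, all of them endosomal. In PKM2-/- hearts the 4 were Tlr13, Tlr7 and the surface receptors Tlr1 and Tlr6. RefSeq promoter windows matched 8 of the 10 members, and Tlr7 and Tlr4 had no entry. Each window below holds the 250 bases before a start on GRCm38.p6, read 5′ to 3′ on the gene's strand, with matches to 4 motifs in capitals on either strand. The motifs searched were GAGGAA (PU.1, a factor of myeloid cells), GAAANNGAA (interferon-stimulated response element, ISRE), TGANTCA (AP-1) and GGGNNTTCC (NF-kB).
Tlr13, chrX:106143025-106143274, plus strand: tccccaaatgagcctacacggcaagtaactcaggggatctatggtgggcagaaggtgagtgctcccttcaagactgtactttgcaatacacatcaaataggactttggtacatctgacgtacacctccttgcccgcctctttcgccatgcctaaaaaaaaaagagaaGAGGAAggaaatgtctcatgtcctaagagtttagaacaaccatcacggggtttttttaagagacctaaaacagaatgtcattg
Tlr8, chrX:167264330-167264579, minus strand: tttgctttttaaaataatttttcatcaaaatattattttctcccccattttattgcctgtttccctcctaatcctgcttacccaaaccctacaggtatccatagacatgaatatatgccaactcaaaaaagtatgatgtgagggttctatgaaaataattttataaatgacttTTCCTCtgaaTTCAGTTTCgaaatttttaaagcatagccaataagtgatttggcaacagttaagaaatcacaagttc
Tlr9, chr9:106222348-106222597, plus strand: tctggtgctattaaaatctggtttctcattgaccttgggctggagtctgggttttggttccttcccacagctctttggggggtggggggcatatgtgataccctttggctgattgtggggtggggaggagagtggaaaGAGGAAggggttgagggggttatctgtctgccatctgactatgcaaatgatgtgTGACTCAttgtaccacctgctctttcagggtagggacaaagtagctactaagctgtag
The PU.1 letters stood in all 3 windows, with the ISRE letters also in the window of Tlr8 and the AP-1 letters in that of Tlr9. Over the 10 windows of the 8 members, PU.1 letters were found in 4, ISRE letters in 2, AP-1 letters in 1 and NF-kB letters in 1 (Tlr2), and 4 windows held none. Among 32851 windows of the same length, 23.25% held the PU.1 letters, 7.13% the ISRE letters, 6.75% the AP-1 letters and 4.98% the NF-kB letters. A match is a string of letters and was not tested as a binding site.

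After MI, 7 of the 10 receptors (Tlr1, Tlr2, Tlr6, Tlr7, Tlr8, Tlr9 and Tlr13) rose in both genotypes, and none fell. Tlr13, a mouse receptor for bacterial ribosomal RNA, changed most, 7.18-fold in PKM2fl/fl and 12.1-fold in PKM2-/- hearts. Tlr3, Tlr4 and Tlr5 were not called in either genotype. Calls came from limma fitted to log2(normalized count + 1) of 20576 genes, and needed a change of 2-fold or more with a p under 0.05 after Benjamini-Hochberg adjustment. By this rule 12.4% of genes were called higher in PKM2fl/fl and 14.5% in PKM2-/-. The members' median log2 fold change was 1.90 and 1.89, against -0.0025 and 0.010 over all genes tested. How calls split between higher and lower over all genes depended on scaling, with 2553 higher and 2279 lower in PKM2fl/fl, 2049 and 2851 when scaled to total counts, and 3263 and 1626 when the ribosomal loci were first removed. The same splits in PKM2-/- hearts were 2974 and 2949, 5494 and 1512, and 4647 and 1872. Scaling to total counts moved the median of all genes to -0.17 in PKM2fl/fl and 0.52 in PKM2-/- on the log2 scale.

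**Figure D1:**
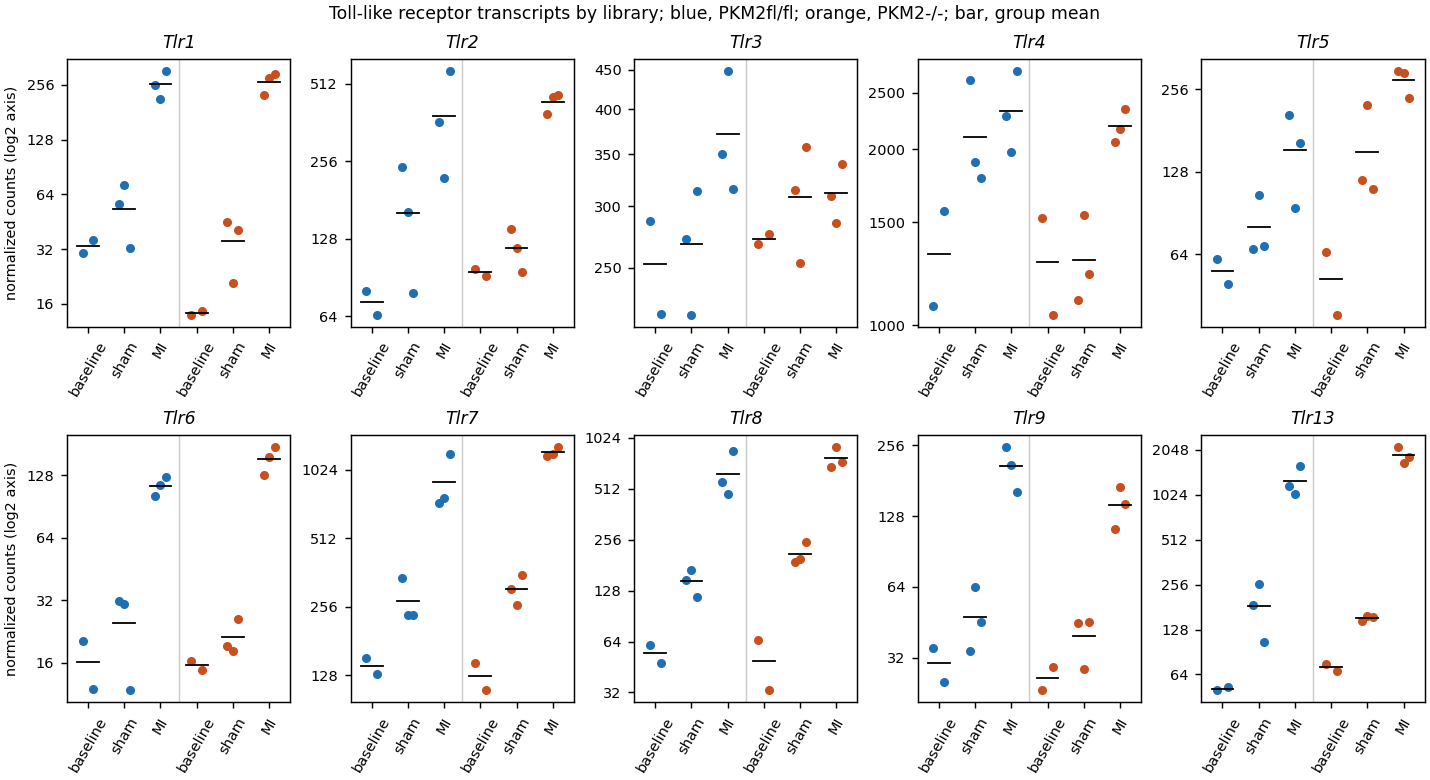
Normalized counts (log2 axis) of the 10 Toll-like receptor genes in each of 16 libraries, by group; points are libraries and bars are group means. Tlr13 lay between 1033 and 2143 in the MI libraries and at or below 258.7 in all others. Libraries of Tlr3 overlapped between compared groups, except that PKM2fl/fl MI (315.5 to 447.9) lay above PKM2fl/fl sham (217.6 to 314.2).

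Among the endosomal receptors, Tlr13 was read at 186.2, 258.7 and 105.9 normalized counts in PKM2fl/fl sham hearts and at 1173, 1033 and 1583 after MI. Its PKM2-/- libraries were read at 146.3, 156.7 and 155.3 after sham and at 2143, 1662 and 1821 after MI. Every MI library was thus several times above every sham library. The MI libraries lay wholly above the sham libraries for 7 members in PKM2fl/fl and 9 in PKM2-/-, against 30.0% and 31.7% of all genes. The log2 fold change was 2.84 ± 0.24 (SE, n = 3 and 3; limma adjusted p = 4.4e-07) in PKM2fl/fl and 3.60 ± 0.24 (limma adjusted p = 4.4e-08) in PKM2-/- hearts.

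Tlr7 and Tlr8 are receptors for single-stranded RNA encoded side by side on chromosome X. Tlr7 was at 341.9, 236.1 and 235.3 after sham and 734.3, 771.6 and 1208 after MI in PKM2fl/fl, and at 307.1, 261.2 and 352.8 after sham and 1184, 1198 and 1294 after MI in PKM2-/- hearts. Tlr8 was at 147.5, 170.4 and 117.7 after sham and 561.1, 476.9 and 854.2 after MI in PKM2fl/fl, and at 189.7, 195.9 and 247.0 after sham and 685.0, 907.6 and 734.3 after MI in PKM2-/- hearts. For both genes the highest PKM2fl/fl library was MI replicate 3, and no sham library reached the lowest MI library. Log2 fold changes of Tlr7 were 1.72 ± 0.20 and 2.00 ± 0.20 (SE; limma adjusted p = 6.1e-06 and 9.8e-07 in PKM2fl/fl and PKM2-/-). Those of Tlr8 were 2.08 ± 0.25 and 1.87 ± 0.25 (limma adjusted p = 1.0e-05 and 1.6e-05).

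Tlr9, the receptor for unmethylated CpG DNA, was at 34.1, 63.6 and 45.6 after sham and 252.0, 211.1 and 161.9 after MI in PKM2fl/fl. Its values in PKM2-/- hearts were 45.0, 28.7 and 45.3 after sham and 112.7, 170.8 and 144.3 after MI. It was the called member whose PKM2-/- mean after MI lay below that of PKM2fl/fl, 142.6 ± 29.1 against 208.3 ± 45.1 (SD, n = 3 each), with overlapping libraries. Its log2 fold change was 2.12 ± 0.28 and 1.83 ± 0.28 (SE; limma adjusted p = 2.0e-05 and 5.0e-05). Tlr3, the receptor for double-stranded RNA, was at 268 ± 48.5 after sham and 371 ± 68.6 after MI in PKM2fl/fl, and at 309 ± 52.7 and 312 ± 27.7 in PKM2-/- hearts (SD, n = 3). Its change of 0.47 ± 0.17 in PKM2fl/fl, where MI and sham libraries did not overlap, passed the adjusted p (0.036, limma) but not the 2-fold limit. Over the alternatives this change ran from 0.29 with total count scaling to 0.66 with ribosomal loci removed. Its adjusted p over them ran from 0.0089 to 0.54. In PKM2-/- hearts the change was 0.02 ± 0.17 with a 95% interval of -0.35 to 0.40.

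At the cell surface, Tlr1 and Tlr6, partners of TLR2 in sensing lipopeptides, also rose. Tlr1 was at 56.4, 71.9 and 32.4 after sham and 256.6, 213.3 and 304.5 after MI in PKM2fl/fl, and at 45.0, 20.9 and 41.0 after sham and 224.6, 279.4 and 294.3 after MI in PKM2-/- hearts. Its log2 fold change was 2.31 ± 0.30 and 2.93 ± 0.30 (SE; limma adjusted p = 2.1e-05 and 1.7e-06). Tlr6 went from 11.8 to 31.7 normalized counts after sham to 102.0 to 126.2 after MI in PKM2fl/fl, and from 18.3 to 25.9 to 128.9 to 176.0 in PKM2-/- hearts, with changes of 2.28 ± 0.34 and 2.81 ± 0.34. The stretch shared by Tlr1 and Tlr6 leaves the division of reads between them uncertain.

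Tlr2, the common partner, varied more between libraries. It was at 243.2, 163.2 and 78.9 after sham and 361.7, 220.8 and 571.6 after MI in PKM2fl/fl, where the groups overlapped. The PKM2-/- values were 139.9, 117.5 and 94.9 after sham and 390.7, 452.8 and 463.1 after MI, without overlap. The log2 fold change was 1.28 ± 0.35 (SE; limma adjusted p = 0.0065) in PKM2fl/fl and 1.90 ± 0.35 (limma adjusted p = 0.00027) in PKM2-/- hearts. Without PKM2fl/fl sham replicate 3 the former was 0.84 (limma adjusted p = 0.037), and without MI replicate 3 it was 0.94 (limma adjusted p = 0.038), both under 2-fold, while the adjusted p over all alternatives ran from 0.0012 to 0.048.

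Tlr4, the lipopolysaccharide receptor, was not called in either genotype. In PKM2fl/fl it was at 2627, 1899 and 1784 after sham and 2280, 1977 and 2721 after MI, and the groups overlapped. PKM2-/- hearts held 1103, 1546 and 1226 after sham and 2057, 2170 and 2349 after MI, and every MI library was higher. The log2 fold change was 0.15 ± 0.19 (95% interval -0.25 to 0.56; limma adjusted p = 0.53) in PKM2fl/fl and 0.78 ± 0.19 (limma adjusted p = 0.0028), under 2-fold, in PKM2-/- hearts. Scaling to total counts turned the PKM2fl/fl value to -0.02 and raised the PKM2-/- value to 1.29, which was then called, as was 1.14 with ribosomal loci removed.

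Tlr5, the flagellin receptor, was at 67.0, 105.7 and 68.6 after sham and 205.6, 94.3 and 162.8 after MI in PKM2fl/fl hearts. Its PKM2-/- values were 119.0, 224.6 and 111.1 after sham and 298.3, 292.8 and 238.0 after MI. Groups overlapped in PKM2fl/fl through MI replicate 2 and did not overlap in PKM2-/- hearts. The changes of 0.89 ± 0.32 and 0.93 ± 0.32 (SE) passed the adjusted p (0.029 and 0.021, limma) and missed the 2-fold limit. They passed that limit at 1.10 without PKM2fl/fl sham replicate 2, 1.21 without PKM2fl/fl MI replicate 2, 1.25 without PKM2-/- sham replicate 2 and 1.03 without PKM2-/- MI replicate 3. They also passed it at 1.08 in PKM2fl/fl with ribosomal loci removed, and in PKM2-/- hearts at 1.44 with total count scaling and 1.29 with those loci removed. The lowest values were 0.65 without PKM2fl/fl MI replicate 1 and 0.75 without PKM2-/- sham replicate 3. Over all alternatives the adjusted p ran up to 0.13 in PKM2fl/fl and 0.089 in PKM2-/- hearts. The rows of Tlr11 and Tlr12, the remaining mouse members, held 0 to 10.7 and 0 to 8.21 normalized counts per library and were not tested.

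**Figure D2:**
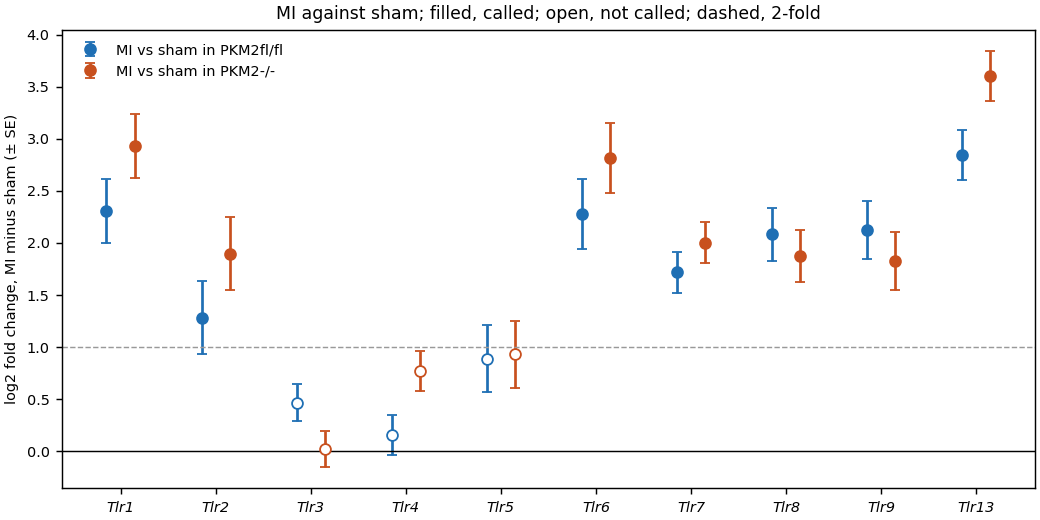
Log2 fold change (MI minus sham, ± SE from limma) of each receptor in PKM2fl/fl (blue) and PKM2-/- (orange) hearts, 3 libraries per group; filled points were called and the dashed line marks 2-fold. Tlr13 stands highest in both genotypes, at 2.84 and 3.60, and Tlr3, Tlr4 and Tlr5 are open.

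Markers of leukocytes moved in the same comparison. All 8 myeloid markers (Ptprc, Itgam, Csf1r, Cd68, Adgre1, Lyz2, Fcgr1 and Tyrobp) were called higher in both genotypes, with a median log2 fold change of 2.02 in PKM2fl/fl and 2.30 in PKM2-/- hearts, and none was at 0. Their summed level was 5431 to 10471 normalized counts after sham and 22304 to 38074 after MI in PKM2fl/fl, and 7018 to 8948 and 29200 to 34438 in PKM2-/- hearts. Of 5 neutrophil markers tested 2 were called higher in each genotype, of 5 cardiomyocyte markers all 5 were called lower, and of 4 endothelial markers none was called. Of 4 fibroblast and 3 B cell markers 1 each was called higher, as was the 1 dendritic cell marker tested, and the 1 T cell marker tested was not called. The part of these shifts in the receptor changes was not tested, and in bulk tissue more cells of a type and more RNA per cell cannot be told apart.

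Set beside the myeloid markers, the receptors lay on both sides of their median. The log2 fold change of Tlr13 exceeded that median by 0.82 in PKM2fl/fl and 1.30 in PKM2-/- hearts, although Cd68, at 3.09, lay above Tlr13 in PKM2fl/fl. Tlr1 and Tlr6 lay 0.26 to 0.63 above it, and Tlr7, Tlr8 and Tlr9 between -0.47 and 0.10 from it. Tlr2 differed from it by -0.74 and -0.41. Tlr3, Tlr4 and Tlr5 were farther below, with differences from -2.28 (Tlr3 in PKM2-/-) to -1.13 (Tlr5 in PKM2fl/fl). The lowest marker, Csf1r, was at 1.10 in PKM2fl/fl and 1.08 in PKM2-/- hearts, under Tlr2 and above Tlr3, Tlr4 and Tlr5. These distances are descriptions without a test.

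Levels of different receptors were compared per kilobase of exon, since longer transcripts gather more reads. In unoperated PKM2fl/fl hearts Tlr4 stood at 189 ± 49.5 normalized counts per kb (SD, n = 2), followed by Tlr3 at 47.3 ± 9.12 and Tlr7 at 26.6 ± 3.06. Tlr2, Tlr13, Tlr8, Tlr1, Tlr9 and Tlr5 came next in that order, between 13.2 and 8.25, and from Tlr13 to Tlr5 each neighbour overlapped the next. Tlr6 was lowest at 3.33 ± 1.23. The order at PKM2-/- baseline began alike, with Tlr4 at 183 ± 48.6, Tlr3 at 50.9 ± 1.14, Tlr7 at 24.0 ± 4.61, Tlr2 at 17.2 ± 0.81 and Tlr13 at 15.2 ± 1.19, and ended with Tlr1 at 4.24 ± 0.14 and Tlr6 at 3.19 ± 0.24.

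After sham surgery Tlr4 remained well above the rest, at 300 ± 65.2 per kb in PKM2fl/fl and 184 ± 32.7 in PKM2-/- hearts (SD, n = 3). Tlr7 and Tlr3 followed and overlapped each other, at 51.2 ± 11.6 and 50.1 ± 9.06 in PKM2fl/fl and at 57.9 ± 8.64 and 57.8 ± 9.85 in PKM2-/- hearts. After MI the order changed at the top. In PKM2fl/fl Tlr4 was at 332 ± 53.4, Tlr13 at 267 ± 60.3, Tlr7 at 171 ± 49.7 and Tlr8 at 124 ± 38.9, each overlapping its neighbour. PKM2-/- hearts had Tlr13 at 396 ± 51.7, above Tlr4 at 313 ± 21.0, Tlr7 at 231 ± 11.3 and Tlr8 at 152 ± 22.9, with no overlap between these neighbours.

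The make-up of the family shifted with the same changes. Tlr4 made up 50.6% to 58.0% of the summed level per kb in PKM2fl/fl sham libraries and 26.4% to 28.2% after MI. Tlr13 went from 4.94% to 10.2% of the sum after sham to 21.3% to 22.8% after MI in that genotype. The endosomal receptors together held a mean of 33.8% after sham and 56.9% after MI in PKM2fl/fl, and 45.3% and 61.8% in PKM2-/- hearts. The summed level itself averaged 545 normalized counts per kb after sham and 1215 after MI in PKM2fl/fl, against 444 and 1422 in PKM2-/- hearts. These shares are descriptions, given without a test.

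**Figure D3:**
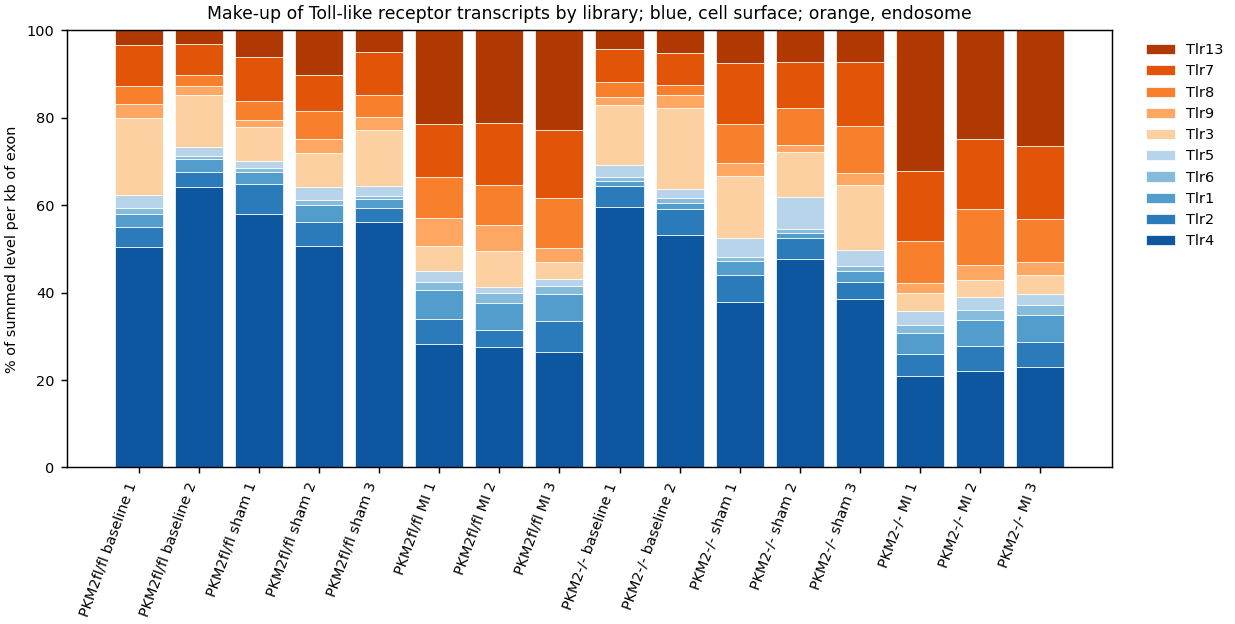
Share (%) of each receptor in the summed level per kb of exon, 1 bar per library, with cell-surface receptors in blue and endosomal receptors in orange. Tlr4 (darkest blue) fills 50.3% to 64.2% of the PKM2fl/fl baseline bars and 26.4% to 28.2% of the PKM2fl/fl MI bars, where Tlr13 (darkest orange) has widened.

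Whether loss of PKM2 altered the receptors was asked at baseline, after sham and after MI. No member was called in any of these comparisons. Over all genes 0.00972% were called at baseline, 0.00486% after sham and 0.413% after MI. DESeq2 and edgeR on the recovered reads likewise called 0 members in each. For the baseline comparison DESeq2 gave an adjusted p to Tlr4 alone among the members, so it could not call the others there. At an unadjusted p under 0.05, limma picked out 1, 3 and 3 members, and DESeq2 and edgeR 1, 3 and 4. By limma at that threshold, 3.64%, 9.95% and 17.0% of all genes were picked out in the 3 comparisons.

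At baseline the member with the smallest p was Tlr1, at 30.6 and 35.8 normalized counts in PKM2fl/fl and 14.0 and 14.7 in PKM2-/- hearts. These values rest on few reads, 39 and 54 in PKM2fl/fl and 12 and 8 in PKM2-/- libraries. The 2 genotypes did not overlap, nor did they for Tlr2 and Tlr13, where PKM2-/- values were the higher. Of all genes 34.9% did not overlap at baseline, so these 3 of 10 members were near the general share. For Tlr1 the log2 difference was -1.16 ± 0.37 (SE, PKM2-/- minus PKM2fl/fl; limma adjusted p = 1). The other 9 members differed by -0.22 to 0.47. Intervals were wide with 2 libraries per genotype, such as -0.15 to 1.10 for Tlr13.

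After sham surgery Tlr4 was lower in every PKM2-/- library, at 1292 ± 229 against 2103 ± 457 normalized counts (SD, n = 3 each), a log2 difference of -0.70 ± 0.19 (limma adjusted p = 0.19). Tlr5 and Tlr8 were higher in every PKM2-/- library, by 0.86 ± 0.32 and 0.54 ± 0.25 (limma adjusted p = 0.36 and 0.50). None of the 3 differences was called. That of Tlr4 passed the adjusted p in DESeq2 (0.042, with a log2 difference of -0.70) but not the 2-fold limit, and its adjusted p over all alternatives ran up to 0.46. Over all genes tested, 16.5% did not overlap between the genotypes after sham, against 3 of the 10 members. The share of reads on ribosomal loci also separated these groups, at 15.9% to 28.1% in PKM2fl/fl and 29.5% to 47.7% in PKM2-/- libraries, and its part in the values was not tested.

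After MI the PKM2-/- means of 7 members lay above those of PKM2fl/fl on the log2 scale, and those of Tlr3, Tlr4 and Tlr9 below. Tlr5 differed by 0.90 ± 0.32, Tlr13 by 0.59 ± 0.24 and Tlr7 by 0.47 ± 0.20 (SE; limma adjusted p = 0.17, 0.23 and 0.23). Libraries did not overlap for Tlr5, Tlr6 and Tlr13, 3 of 10 members, against 18.9% of all genes. Tlr4 differed by -0.08 with a 95% interval of -0.48 to 0.33, and Tlr1 by 0.05 with an interval of -0.60 to 0.70. Tlr9 was 0.54 lower in PKM2-/- hearts, as the log2 difference of -0.54 ± 0.28 gives (limma adjusted p = 0.34).

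**Figure D4:**
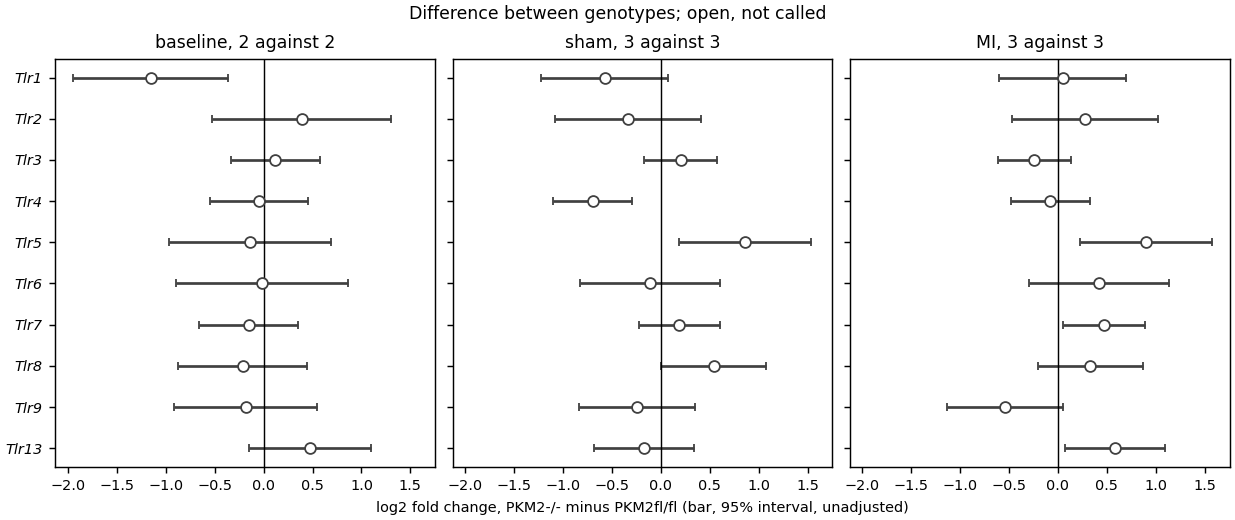
Log2 difference between genotypes (PKM2-/- minus PKM2fl/fl) for each receptor at baseline, after sham and after MI; bars are 95% intervals from limma, not adjusted for the number of genes. No point was called, and the sham panel places Tlr4 at -0.70 and Tlr5 at 0.86.

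After MI the neutrophil markers had a summed level of 1232 to 2141 normalized counts in PKM2fl/fl and 3529 to 4530 in PKM2-/- hearts, though 0 of 5 tested were called. Myeloid sums overlapped. At baseline the share of reads on ribosomal loci ran from 17.4% to 22.3% in PKM2fl/fl and from 40.9% to 45.0% in PKM2-/- hearts. The part of either in the receptor values was not tested. Scaling to total counts, which the ribosomal reads enter, moved the median of all genes to -0.59, -0.33 and 0.36 in the 3 genotype comparisons. Uncalled differences changed sign with it for Tlr2, Tlr3 and Tlr13 at baseline, Tlr3 and Tlr7 after sham, and Tlr3 and Tlr4 after MI.

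The difference of the MI effect between genotypes was tested as an interaction. No member passed, and 0.00% of all genes did (0 genes by limma and by edgeR, 36 by DESeq2; 1703 genes, 8.28%, and 2 members at an unadjusted p under 0.05 by limma). Tlr13 had the largest value, 0.76 ± 0.34 (SE; 95% interval 0.03 to 1.48; limma adjusted p = 0.58), followed by Tlr1, Tlr4 and Tlr2 at 0.62, 0.62 and 0.61. The values of Tlr3, Tlr9 and Tlr8 were -0.44, -0.30 and -0.21, and they turned positive with total count scaling. The rise of these receptors after MI was therefore not shown to differ between genotypes, and the upper bounds of the 95% intervals of Tlr1, Tlr2, Tlr4, Tlr6 and Tlr13 lay between 1.20 and 1.67.

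Sham surgery itself was compared with baseline, as sham hearts are the reference for MI. All 10 members had higher fitted means after sham in both genotypes (9 by edgeR in PKM2-/-), with median log2 fold changes of 0.64 and 0.82 against 0.018 and 0.014 over all genes. The smallest were 0.08 ± 0.20 for Tlr3 in PKM2fl/fl and 0.02 ± 0.21 for Tlr4 in PKM2-/- (SE). Without baseline replicate 2 of the same genotype these were -0.12 and -0.25. In PKM2fl/fl 1 member was called (Tlr13), where 0.160% of genes were called higher. Among PKM2-/- hearts 4 were called (Tlr5, Tlr7, Tlr8 and Tlr13), where 2.06% of genes were called higher. Tlr13 went from 50.2 and 52.4 at baseline to 105.9 to 258.7 after sham in PKM2fl/fl, a change of 1.73 ± 0.27 (SE; limma adjusted p = 0.016). Without either baseline library, or without sham replicate 1 or 2, its adjusted p was 0.053 to 0.12 by limma and the call was lost.

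In PKM2-/- hearts Tlr8 went from 65.3 and 33.0 at baseline to 189.7 to 247.0 after sham, a log2 fold change of 2.15 ± 0.28 (limma adjusted p = 0.0011) that was called without any single library. Tlr7 went from 144.5 and 110.0 to 261.2 to 352.8, a change of 1.27 ± 0.22 (limma adjusted p = 0.0049). Tlr5 changed by 1.50 ± 0.36 and Tlr13 by 1.08 ± 0.27 (limma adjusted p = 0.024 and 0.031). Without PKM2-/- baseline replicate 2, only Tlr8 was called among the members. Tlr5 was also lost without sham replicate 2 (limma adjusted p = 0.080), and Tlr13 was lost without any 1 of the 5 libraries (limma adjusted p = 0.061 to 0.18) and in edgeR (adjusted p = 0.080). Summed myeloid markers were 3720 to 4837 at baseline and 5431 to 10471 after sham in PKM2fl/fl, and 3771 to 5195 and 7018 to 8948 in PKM2-/- hearts, and their part in these changes was not tested.

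The machinery around the receptors was followed in lists of known pathway genes. In the MI comparison, 3 of 6 genes for ligand transfer and co-receptors rose and 1 fell in each genotype. Cd180, a surface relative of TLR4, rose by 1.23 ± 0.09 and 1.13 ± 0.09 on the log2 scale (SE, PKM2fl/fl and PKM2-/-), and Ly86, which associates with CD180, by 1.93 ± 0.33 and 1.68 ± 0.33. Cd36, a fatty acid transporter and scavenger receptor, fell, with values of -1.34 ± 0.18 and -1.47 ± 0.18. These lists hold genes that many cell types use for other ends.

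Endosomal receptors need chaperones and proteases to mature. Of 10 such genes 5 rose in PKM2fl/fl and 6 in PKM2-/- hearts, none fell, and the median log2 fold change was 1.10 and 1.26. Ctss and Ctsb, lysosomal cathepsins, rose by 2.77 ± 0.22 and 1.53 ± 0.12 in PKM2fl/fl and by 2.68 ± 0.22 and 1.65 ± 0.12 in PKM2-/- hearts. Lgmn, the protease legumain, rose by 2.02 ± 0.13 and 2.03 ± 0.13.

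Downstream of the receptors, counts varied between lists. Of 5 adaptors tested 2 rose in each genotype, Pik3ap1, a phosphoinositide kinase adaptor, by 2.25 ± 0.14 and 2.32 ± 0.14 and Ticam2, which links TLR4 to TRIF, by 1.45 ± 0.32 and 1.22 ± 0.32. Myd88 had changes of 0.89 ± 0.12 and 0.85 ± 0.12, under 2-fold. Of 18 kinases and ubiquitin ligases 3 rose in each genotype, near the 12.4% and 14.5% of all genes called higher, among them Irak4, the kinase recruited by MyD88, by 1.21 ± 0.12 and 1.40 ± 0.12, and Btk, a kinase of B and myeloid cells, by 1.89 ± 0.21 and 2.11 ± 0.21. Traf3 stood at 0.89 and 0.66. Of 11 transcription factors 2 rose in each genotype, again near that share, with Irf8, a factor of myeloid cells, at 1.46 ± 0.20 and 1.62 ± 0.20. Irf5 was at 0.83 and 1.14, called in PKM2-/- hearts, and Nfkb1 at 0.40 and 0.26.

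Of 13 negative regulators 3 rose in PKM2fl/fl and 2 in PKM2-/- hearts, the latter close to the 14.5% of all genes. They included Nfkbiz, an atypical IkB protein, at 1.34 ± 0.17 and 1.18 ± 0.17 and Tnfaip3, the A20 ubiquitin-editing enzyme, at 1.12 ± 0.26 and 1.18 ± 0.26. Zc3h12a, an RNase that degrades inflammatory transcripts, was at 0.83 and 0.67. Of 10 genes for proteins described as ligands of the receptors in damaged tissue 5 rose in each genotype. The 3 with the smallest p encode matrix proteins, with Tnc (tenascin C) at 6.03 ± 0.51 and 5.58 ± 0.51, Fn1 (fibronectin) at 4.08 ± 0.28 and 3.90 ± 0.28 and Bgn (biglycan) at 1.84 ± 0.15 and 1.54 ± 0.15. Of 10 inflammatory targets tested 9 rose in PKM2fl/fl and all 10 in PKM2-/- hearts. Ccl2, a monocyte chemokine, rose by 3.82 ± 0.54 and 3.81 ± 0.54, Il6 by 5.51 ± 0.94 and 5.64 ± 0.94, and Ptgs2 (cyclooxygenase) by 2.20 ± 0.39 and 2.68 ± 0.39. In the genotype comparisons and the interaction, none of the genes on these lists was called.

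The genes whose levels most resembled each receptor were ranked by Pearson's r of log2(normalized count + 1) over the 16 libraries, which share the 6 groups. Tlr13 was closest to Plek (0.994), Nckap1l (0.993) and Cd53 (0.992), and Tlr8 to Ms4a6c, Fcgr3 and Ms4a6d (0.991 each). Tlr7 was closest to Marchf1, Pla2g7 and Ccr1 (0.987 to 0.988). Tlr9 was closest to Taok3 (0.979), Pik3ap1 and Slc29a3 (0.972 each). Plek, Nckap1l, Cd53, Fcgr3 and Ccr1 are known from leukocytes.

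Tlr6 was closest to Arl6ip1 (0.988), Hells and Foxm1 (0.983 each), and Tlr1 to Kif22 (0.982), Fubp1 (0.978) and Kifc1 (0.976). Hells, Foxm1, Kif22 and Kifc1 are known from dividing cells. Tlr2 was closest to Cers6 (0.963), Pygl (0.962) and Cd63 (0.961), and Tlr5 to Hdc (0.951), Nsd3 and Zc3h12a (0.946 each). Tlr4 was closest to Upk1b (0.905), Sestd1 (0.897) and Lamp2 (0.893). Tlr3 had the loosest companions, Adar (0.839), Pnpt1 (0.832) and Rtp4 (0.827), which are known as interferon-responsive genes. Among the receptors themselves the closest pair was Tlr7 and Tlr8 (0.98) and the least alike were Tlr3 and Tlr4 (0.145). Group differences carry much of these values. Over deviations from the group means, r was 0.684 for Tlr7 and Tlr8, 0.343 for Tlr7 and Tlr13 (0.974 over the libraries) and lowest for Tlr4 and Tlr9, at -0.70.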

How the data were processed

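The authors used PRINSEQ for trimming, HISAT2 for alignment against the mm10 build, featureCounts for read counts per gene and DESeq2 for normalization (tool names from the study's methods and the submitters' processing notes, versions not given in the sources used here). The deposited values are a normalized signal, reads per gene divided by a size factor for each of 16 libraries. The same table holds the authors' own fold changes and p-values for a genotype comparison, which were not used. Dividing each column by its smallest step gave whole reads for 100% of 887872 values, within 0.1 of a whole number.

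Groups came from the sample labels, with 0 columns left without a sample. Genes with a mean of at least 10 entered limma-trend 3.58.1 (R 4.3.3) on log2(value + 1), with 6 group means, 8 comparisons and Benjamini-Hochberg adjustment over 20576 genes. Called means an adjusted p under 0.05 and at least 2-fold, the thresholds of the study's methods. DESeq2 1.42.0 and edgeR 4.0.16 were run on the recovered reads as alternatives. For MI against sham they called 5347 and 5305 genes in PKM2fl/fl and 6553 and 6470 in PKM2-/-, against 4832 and 5923 by limma. The sets of genes differed, with 55492 entered in DESeq2 and 23161 in edgeR against 20576 in limma. The scripts were tested on simulated data. Exon lengths came from GENCODE M39 on GRCm39, used for length, overlap and shared sequence only.

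Named genes are all members, up to 3 genes per pathway list with the smallest p after MI in PKM2fl/fl, and the 3 genes most like each member, with promoters for the first 4 members by that p where an entry existed. Members, lists and the 13 loci treated as related to ribosomal RNA were chosen with earlier results of these data known. The loci are mt-Rnr1, mt-Rnr2, n-R5s1, CT010467.1, Gm19951, Gm20594, Gm15564, Mir6236, Lars2, Gphn, Cd44, Cmss1 and Filip1l. Among them, Gm20594, Cd44, Lars2, Gphn and CT010467.1 are in the paper's list of genes differing between the genotypes at baseline. Libraries held 20623769 to 71855101 reads. The limma SE and p of a gene rest on a single estimate of its spread between mice. That estimate is shared by the 6 groups of 2 or 3 mice and adjusted toward the trend over genes. It is not the spread of the compared groups alone.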

Additional observations from a re-analysis of the deposited data

How the results depend on the processing

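With 2 or 3 mice per group and as few as 8 reads of a member in a library, small differences were not detectable. Each of the 8 member counts was recomputed under TMM factors, total count scaling, removal of ribosomal loci with total count scaling, no filter, a pseudocount of 0.1, a replicate block, DESeq2, edgeR, the compared groups alone, no fold threshold and without each library, where a lone baseline library was assumed to vary like the other groups. Genotype and interaction counts were 0 throughout, although at baseline DESeq2 gave an adjusted p to Tlr4 alone and could not call the other members. After MI the counts were 6 to 8 in PKM2fl/fl and 7 to 8 in PKM2-/- without single libraries, and 7 to 9 under the other settings. The sham count in PKM2fl/fl (1) was 2 with ribosomal loci removed and in DESeq2 (Tlr8 added), 0 within the compared groups, and 0 to 3 without single libraries, with 3 (Tlr2 and Tlr8 added) without sham replicate 3. In PKM2-/- hearts (4) it was 1 to 3 without single libraries.

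The replicate block left the member counts at 7 and 7 after MI, 1 and 4 after sham and 0 elsewhere. In their deviations from group means, same-numbered libraries correlated at -0.196 to 0.126, and differently numbered ones at -0.1999 to 0.1955. No pairing by number was seen. These values cannot exclude it, since in a group of 2 libraries the deviations mirror each other. Of 1220 single-receptor values, 1121 kept their call or, uncalled, stayed within 1 SE, 68 moved by more than 1 SE without a call, 14 gained a call and 17 lost one, and no called value changed sign.

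Counts over all genes moved more, and they did not start from the same genes (55492 in DESeq2, 23161 in edgeR, 20576 to 20698 in limma). Genotype calls at baseline, after sham and after MI, interaction calls and sham calls in PKM2fl/fl were 2, 1, 85, 0 and 35 by limma, 18, 111, 271, 36 and 237 by DESeq2, and 44, 113, 121, 54 and 94 with total count scaling. Removing ribosomal loci gave 0, 0, 69, 0 and 42, and edgeR gave 1, 1, 62, 0 and 22. Higher and lower genotype calls after MI were 32 and 53 by limma and 101 and 20 with total count scaling, or 45 and 24 with ribosomal loci removed. Higher and lower sham calls in PKM2-/- were 423 and 125 by limma and 551 and 32 with total count scaling.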
